A study of Mus musculus with 4 samples.

Results

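The chemokines and chemokine receptors were followed through the mouse lung 14 days after bleomycin. All gene symbols made of Ccl, Ccr, Cxcl, Cxcr, Xcl, Xcr, Cx3cl or Cx3cr, a number and at most 1 letter were taken, except Cxcl9, Cxcl10, Cxcl11 and Cxcr3. This name rule gave 59 of the 32286 gene entries, with 53 symbols, 36 of ligands and 17 of receptors. Of the 59 entries, 50 were detected in at least 3 cells, 8 had no unique molecular identifier (UMI, which marks 1 captured RNA molecule) in any retained cell, and 49 had UMIs in the lineages described here. Ccl26 and 1 entry of Ccl21b had 3 UMIs each, none of them in these lineages. The symbols Ccl19, Ccl21a, Ccl21b, Ccl21c and Ccl27a have 6 further entries between them, so reads of these near-identical copies may have been divided and their levels are uncertain.

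Chemokines are small secreted proteins that guide cells along gradients. Their receptors span the membrane and signal through G proteins, while atypical receptors bind the same ligands and mostly clear them. Inflammatory chemokines are induced by injury and draw neutrophils, monocytes and lymphocytes into the lung, whereas homeostatic chemokines such as Cxcl12, Ccl19 and Ccl21a are made in resting tissue and place lymphocytes and dendritic cells.

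Wild-type (WT) mice were compared with Tubb3-/- littermates, 2 mice of each, aged 8 to 11 weeks and of both sexes, all given 0.8 U/kg bleomycin into the trachea and collected on day 14. There was no group without bleomycin. Tubb3-/- mice are homozygous for a Cre recombinase placed in frame at the translation start of Tubb3, the gene of neuronal beta-tubulin that the antibody Tuj1 detects, so the loss of Tubb3 and the presence of Cre cannot be told apart. Each mouse gave a whole-cell library, freed of red blood cells and sorted for live cells, and a mural cell-enriched mesenchymal library, depleted of cells bearing CD31, CD45, EpCAM or TER-119, sorted as MCAM+ PDGFRα- and MCAM- cells and mixed 1:1.

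The 8 libraries held 32121 cells and 30083 were retained, with 41462258 to 95036340 gene UMIs in each library. The targeted gene was read first in every library. Tubb3 stood at 1.93 and 0.868 CPM (counts scaled to library size, defined below) in whole-cell libraries of WT and at 0.262 and 0.321 CPM in those of Tubb3-/- mice. Mural cell-enriched libraries gave 5.49 and 3.67 CPM for WT and 0.789 and 0.680 CPM for Tubb3-/-. A cell belonged to a lineage if it held at least 1 UMI of that lineage's gene alone, with Ptprc for immune, Cdh5 for endothelial, Epcam for epithelial, Msln for mesothelial, Higd1b or Myh11 for mural and Pdgfra for fibroblast cells. This left 15592 cells (51.8%), because 13731 cells held genes of several lineages and 760 held none. Immune cells numbered 4383, endothelial cells 2276, epithelial cells 321, mesothelial cells 322, mural cells 4505 and fibroblasts 3785. The lineage names were checked on other markers, and 41 of the 42 further lineage markers were highest in their own lineage, Dcn being the exception. UMIs were summed per mouse and lineage, between 1004521 and 21197453 gene UMIs a sum, and all levels are CPM, a gene's UMIs scaled to the gene UMIs of that sum. The method reads the 3' end of RNA, so levels do not grow with gene length. Values are given for WT 1, WT 2, Tubb3-/- 1 and Tubb3-/- 2, in that order.

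Markers of each lineage were also read in cells of the others, and this sets a floor under the levels. Markers of immune cells other than Ptprc were found in the other lineages at a median of 0.560% (mural) to 2.15% (endothelial) of their immune level. For fibroblast markers this was 2.88% in immune cells but 39.1% in mural and 35.4% in mesothelial cells, and the cause was not tested. A member at or below the level of these markers was read as background in that lineage.

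The sequences upstream of the neutrophil-attracting Cxcl genes on chromosome 5 are shown first because Cxcl1 and Cxcl2 are among the highest ligands of fibroblasts and immune cells, Cxcl3 lies beside them, and their neighbour Cxcl15 is the leading epithelial member. The longest run that the 250 bases before the RefSeq start (build GRCm38) of Cxcl1, Cxcl2 and Cxcl3 have in common is GGGAATTTCCC, 11 bases, which has the letters of a binding sequence of the inflammatory factor NF-kB. Searched on either strand, it occurred in 14 of 32851 RefSeq promoters, or 0.0426%, and in no other of the 38 member symbols with a promoter in that table. It begins 73 bases before the RefSeq start of Cxcl3, 71 before that of Cxcl1 and 97 before that of Cxcl2. The run was picked from these promoters, and a match describes letters and not a site in use. The shared run is in capitals, and each sequence is on the plus strand and stops before the earliest annotated transcript, at chr5:90785851-90786100 for Cxcl3, chr5:90794284-90794533 for Cxcl15, chr5:90890995-90891240 for Cxcl1 and chr5:90903649-90903870 for Cxcl2.
Cxcl3: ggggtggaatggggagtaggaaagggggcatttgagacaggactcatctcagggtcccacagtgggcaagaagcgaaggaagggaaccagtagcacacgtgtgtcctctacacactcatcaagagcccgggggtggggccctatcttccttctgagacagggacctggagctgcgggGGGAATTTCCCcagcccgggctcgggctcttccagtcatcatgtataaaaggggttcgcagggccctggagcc
Cxcl1: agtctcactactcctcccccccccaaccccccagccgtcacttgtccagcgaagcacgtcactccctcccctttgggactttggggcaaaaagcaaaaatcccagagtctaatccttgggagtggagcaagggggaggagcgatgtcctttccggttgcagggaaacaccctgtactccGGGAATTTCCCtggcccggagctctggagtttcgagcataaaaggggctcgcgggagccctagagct
Cxcl2: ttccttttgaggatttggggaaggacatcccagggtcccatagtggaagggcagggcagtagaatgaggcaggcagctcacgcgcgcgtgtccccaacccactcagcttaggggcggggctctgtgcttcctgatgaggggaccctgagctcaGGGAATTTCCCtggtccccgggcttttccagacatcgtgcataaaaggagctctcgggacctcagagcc
Cxcl15: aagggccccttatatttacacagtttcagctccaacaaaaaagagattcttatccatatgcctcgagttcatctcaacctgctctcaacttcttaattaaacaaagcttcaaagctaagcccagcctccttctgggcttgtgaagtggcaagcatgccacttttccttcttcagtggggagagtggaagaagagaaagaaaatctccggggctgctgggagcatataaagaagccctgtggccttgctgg
The sequence of Cxcl15 does not hold these letters.

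The chemokine map was divided between lineages by ligand and was mostly immune for receptors. Of the 49 members with UMIs, 29 had their highest mean level in immune cells, 6 in epithelial cells, 5 in fibroblasts, 4 in endothelial cells, 3 in mesothelial cells and 2 in mural cells. Immune cells led for 16 of 17 receptors and for 13 of 32 ligands. In the leading lineage 6 members, all ligands, exceeded 500 CPM, 20 lay between 50 and 500, 17 between 5 and 50, and 6 below 5. Of the 43 members at 5 CPM or more, 35 had no overlap between the 4 mice of the leading lineage and those of the next one, beside 49.3% of the 14178 genes at that level, and 28 led by at least 10-fold, beside 10.6%, 24 of the 28 in immune cells.

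**Figure D1:**
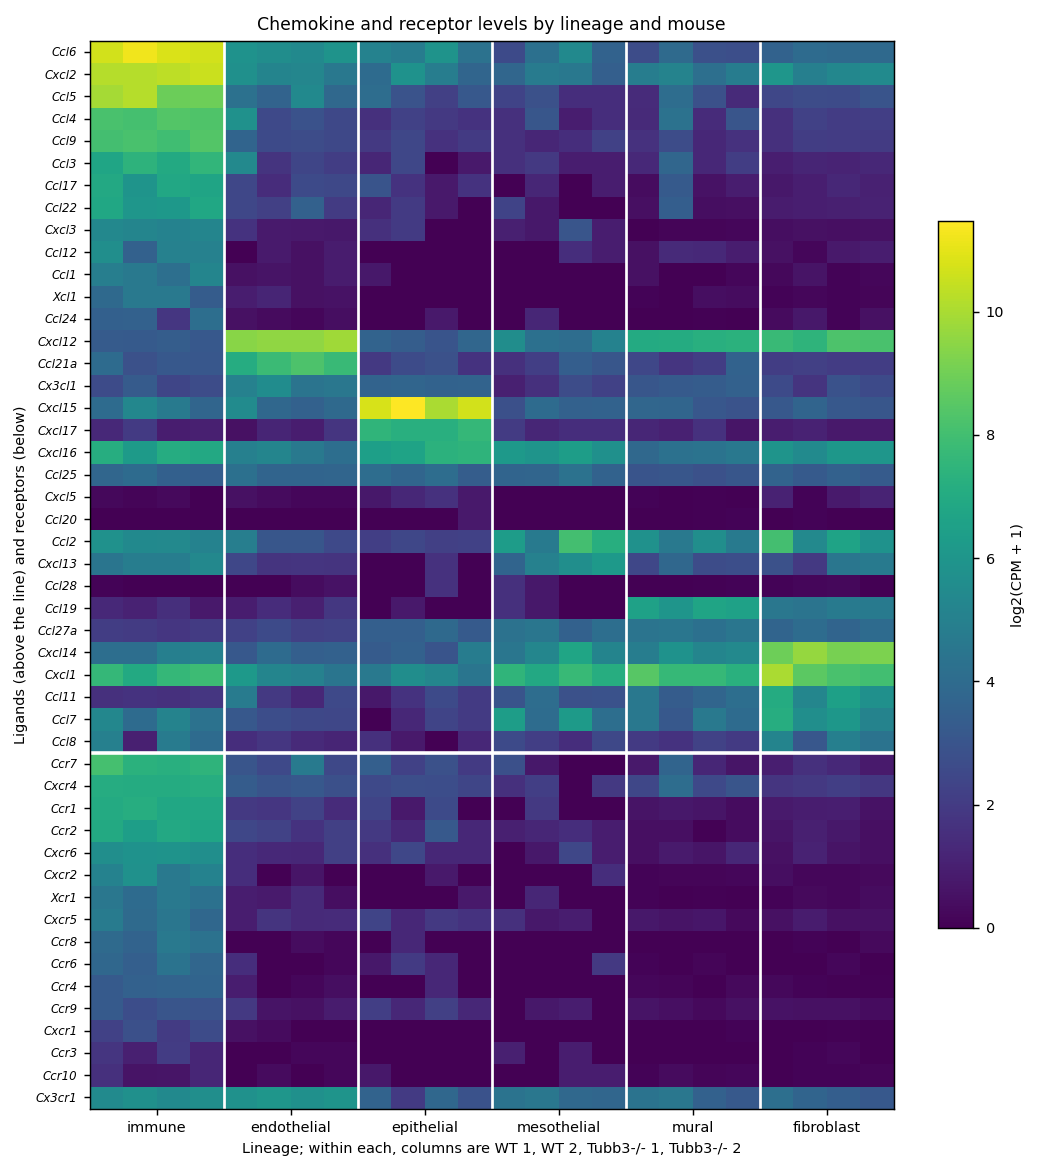
Level of members with UMIs, as log2(CPM + 1) on a color scale, with ligands above and receptors below the white line and, for each of the 6 lineages, 1 column for each mouse. Receptors are brightest in the immune columns, while Cxcl15, Cxcl12, Cxcl14 and Ccl19 are brightest in epithelial cells, endothelial cells, fibroblasts and mural cells.

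Summed over all ligands, the level was 5464 ± 388 CPM in immune cells (SD, n = 4 mice, also below), 2298 ± 728 in epithelial cells, 1842 ± 459 in fibroblasts, 1333 ± 38.8 in endothelial cells, 714 ± 77.3 in mural cells and 644 ± 211 in mesothelial cells. Receptors summed to 855 ± 77.5 CPM in immune cells and to between 20.0 ± 4.18 (fibroblasts) and 90.8 ± 7.19 (endothelial cells) elsewhere. The order of fibroblasts and epithelial cells for ligands, and of mural and mesothelial cells, was within the spread between mice. Few genes made up each total. Cxcl15 alone gave 78.6% of the epithelial ligand level and Cxcl12 gave 58.0% of the endothelial one, while Ccl6, Cxcl2 and Ccl5 together gave 71.7% of the immune one.

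Each lineage was then tested against the mean of the other 5 with the mouse as a block, by edgeR's quasi-likelihood test on all 16886 genes that passed the count filter, with Benjamini-Hochberg adjustment. Of the 59 members 44 passed, and low members pass only through the lineage where they are high. In immune cells 35 of the 44 were higher, beside 39.3% of all genes, and 5 were lower, beside 34.6%, and the median log2 fold change was 5.75 for members and 0.01 for all genes. Fewer members were higher in fibroblasts, 10 against 31.2% of all genes, in mural cells, 5 against 30.6%, in endothelial cells, 4 against 29.9%, in epithelial cells, 4 against 27.5%, and in mesothelial cells, 4 against 19.4%. Lower were 20 in fibroblasts (26% of all genes), 21 in mural cells (27.5%), 14 in epithelial cells (29.4%), and 10 each in endothelial (29.5%) and mesothelial cells (21.2%). The whole-cell libraries gave 97.9% of immune, 81.2% of endothelial and 63.6% of epithelial cells. They gave 34.9% of fibroblasts, 23.0% of mesothelial and 9.81% of mural cells. Lineage and kind of library were thus partly confounded, which the mouse block does not remove.

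Among immune ligands, Ccl6, a CC chemokine that acts through Ccr1, was at 1648, 2373, 1795 and 1659 CPM, with a log2 fold change over the other lineages of 6.75 ± 0.17 (SE). All 4 mice were high, and the level in the other lineages was 0.422% to 2.74% of this, near the median of immune markers there, so it was read as background. Cxcl2, a neutrophil attractant that binds Cxcr2, was at 1182, 1159, 1287 and 1484 CPM (log2 fold change 5.70). Its levels in fibroblasts and mural cells, 3.45% and 2.06% of the immune one, were above the highest immune marker there, 1.07% and 1.00%. Ccl5, which draws T cells and monocytes, was at 971, 1148, 472 and 483 CPM. Next came Ccl4, Ccl9 and Ccl3, with Ccl4 at 286, 268, 336 and 317 CPM, Ccl9 at 259, 285, 245 and 331 and Ccl3 at 105, 168, 124 and 184. The dendritic cell ligands Ccl17 and Ccl22, which bind Ccr4, were at 120, 59.7, 118 and 103 CPM and at 112, 63.3, 68.0 and 112 CPM. For both, the lowest mouse was a WT mouse.

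The immune ligands of lower level were Cxcl3, Ccl12, Ccl1, Xcl1 and Ccl24. Cxcl3, which like Cxcl2 binds Cxcr2, was at 39.5, 36.1, 32.5 and 35.8 CPM, with 33.9% of its immune UMIs in neutrophils as gated below. Ccl1, the ligand of Ccr8, was at 29.3, 24.1, 17.3 and 36.2 CPM. Ccl24, an eosinophil attractant, was at 10.4, 10.6, 2.57 and 16.8 CPM, so Tubb3-/- 1 was the low mouse.

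Within the immune cells, gates of a few markers each were used as a description after the data had been seen. A cell entered a gate when it held UMIs of that gate alone, so that 1501 of the 4383 cells fell in several gates and 391 in none. The NK cell gate (Ncr1 or Klrb1c, 136 cells, 3.10% of the immune cells) held 28.2% of the immune Ccl5 UMIs, with Ccl5 at 12112, 15918, 9689 and 9112 CPM against 1128, 526, 497 and 757 in the T cell gate (Cd3e, Cd3d or Cd3g, 841 cells). Xcl1, which attracts cross-presenting dendritic cells, was at 194, 330, 581 and 167 CPM in NK cells. Its receptor Xcr1 was at 71.8, 129, 132 and 139 CPM in the dendritic cell gate (Flt3 or Zbtb46, 277 cells), where 52.0% of its UMIs lay. Cxcl2 was at 3695, 4297, 6211 and 4831 CPM in the neutrophil gate (Retnlg or Csf3r, 501 cells) and at 3463, 2501, 3142 and 3783 in the C1q macrophage gate (C1qa or C1qb, 217 cells). Ccl6 was at 5547, 4960, 4829 and 4015 CPM in the alveolar macrophage gate (Marco, Krt79 or Car4, 214 cells), higher in every mouse than in the C1q macrophage gate, where it was at 2364, 1395, 2528 and 1570. Ccl12, a monocyte attractant whose gene lies near Ccl2 and which was at 49.3, 10.8, 32.2 and 31.6 CPM over all immune cells, had 48.5% of its immune UMIs in the C1q macrophage gate, and Ccl17 and Ccl22 had 49.2% and 42.8% in the dendritic cell gate.

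**Figure D2:**
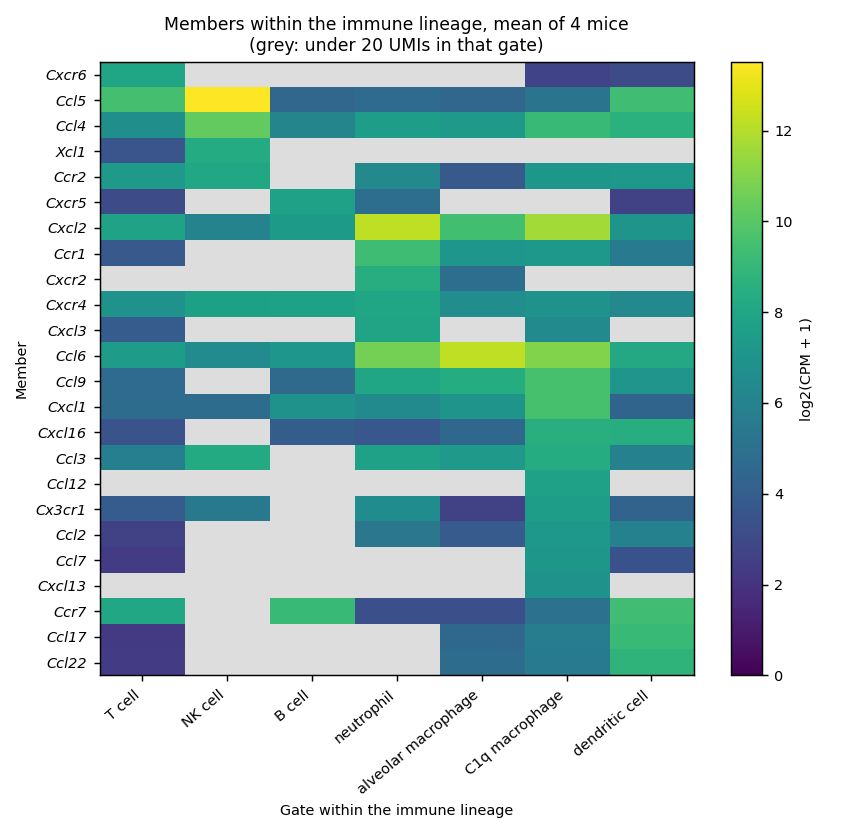
Level as log2(CPM + 1) on a color scale, mean of the 4 mice, of 24 members (rows) in 7 marker gates within the immune cells (columns), with combinations of few UMIs in grey. Ccl5 is brightest in the NK cell gate, Cxcl2 in the neutrophil and C1q macrophage gates, Ccl6 in the alveolar macrophage gate, and Ccl17, Ccl22 and Ccr7 in the dendritic cell gate.

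Outside the immune cells the endothelium was led by Cxcl12, the ligand of Cxcr4 and of the scavenger Ackr3 (chr6:117168535-117181367, plus strand). It was at 679, 751, 756 and 906 CPM, above every sum of every other lineage, with a log2 fold change of 4.21. Cxcl12 was higher than the mean of the other lineages in fibroblasts too, at 219, 175, 303 and 284 CPM (2.47), and in mural cells, at 129, 130, 150 and 157 CPM (1.43). These were 31.8% and 18.3% of the endothelial level, where endothelial markers reached at most 3.83% and 2.49%, so the fibroblast and mural levels were above background. Between 64.3% and 74.8% of endothelial cells of a mouse held a Cxcl12 UMI, and 42.1% to 51.1% after each cell was thinned to 2000 UMIs, against 7.12% to 7.72% and 1.97% to 2.13% of immune cells. General capillary cells (Gpihbp1 alone, 876 cells) held it at 922, 690, 815 and 1087 CPM and aerocytes (Car4 or Ednrb, 171 cells) at 57.3, 57.3, 333 and 213.

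Ccl21a, a ligand of Ccr7 made by lymphatic vessels, was at 135, 222, 304 and 216 CPM in endothelial cells (log2 fold change 5.30) but lay in few of them. The highest cell held 245 of the 301 UMIs in WT 1 and 557 of the 884 in WT 2. In Tubb3-/- 1 it held 753 of 2110 and in Tubb3-/- 2 313 of 1317. A UMI was present in 6.74% to 9.92% of the cells and in 2.91% to 3.94% after thinning, against 5.78% to 8.55% and 1.58% to 2.39% of immune cells, so the share before thinning was read as near background. The lymphatic gate (Prox1 or Mmrn1), 23 of the 2276 endothelial cells, held 31.8% of its endothelial UMIs, at 2579, 3327, 7165 and 10892 CPM. These levels rest on 3, 5, 6 and 9 cells. Cx3cl1, the membrane-anchored ligand of Cx3cr1, was at 32.2, 47.0, 20.0 and 22.1 CPM in endothelial cells (log2 fold change 2.12).

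In epithelial cells, Cxcl15 (lungkine, a neutrophil attractant of the airway and alveolar epithelium) was at 1725, 2824, 1038 and 1634 CPM, with a log2 fold change of 6.96 ± 0.20. Cxcl17, a mucosal chemokine, was at 180, 151, 148 and 197 CPM (6.83). Cxcl16, the transmembrane ligand of Cxcr6, was at 87.4, 100, 166 and 173 CPM in epithelial cells and reached 89.4% of this mean in immune cells, and these lineages overlapped. In the immune gates it was at 353, 287, 370 and 353 CPM in dendritic cells and at 310, 429, 352 and 389 CPM in C1q macrophages.

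Fibroblasts were led by Cxcl14, a ligand made constitutively by epithelia and stroma (chr13:56288643-56296551), at 495, 797, 559 and 591 CPM, with a log2 fold change of 4.88. It was widespread, with a UMI in 74.1% to 85.8% of fibroblasts and 39.6% to 57.3% after thinning, against 4.58% to 9.06% and 0.578% to 4.66% of endothelial cells. Cxcl1, which like Cxcl2 draws neutrophils through Cxcr2, was at 1023, 377, 289 and 256 CPM in fibroblasts (2.32), with WT 1 above the other 3 mice, and at 356, 205, 207 and 154 CPM in mural cells. The mural level was 47.4% of the fibroblast one, between the median (39.1%) and the highest (89.3%) of fibroblast markers there. The immune level of Cxcl1 was 38.4% of the fibroblast one and above the highest fibroblast marker there (7.07%). The monocyte attractants Ccl2 (chr11:82035571-82037453) and Ccl7, both ligands of Ccr2, and the eosinophil attractant Ccl11 were fibroblast members of intermediate level. Ccl2 was at 263, 41.2, 98.97 and 56.3 CPM, Ccl7 at 139, 49.2, 66.7 and 34.4 and Ccl11 at 133, 37.0, 91.8 and 53.7. WT 1 was the highest mouse for all of them. Ccl8, another monocyte attractant, was at 34.8, 7.69, 29.4 and 19.9 CPM in fibroblasts and overlapped its immune levels.

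**Figure D3:**
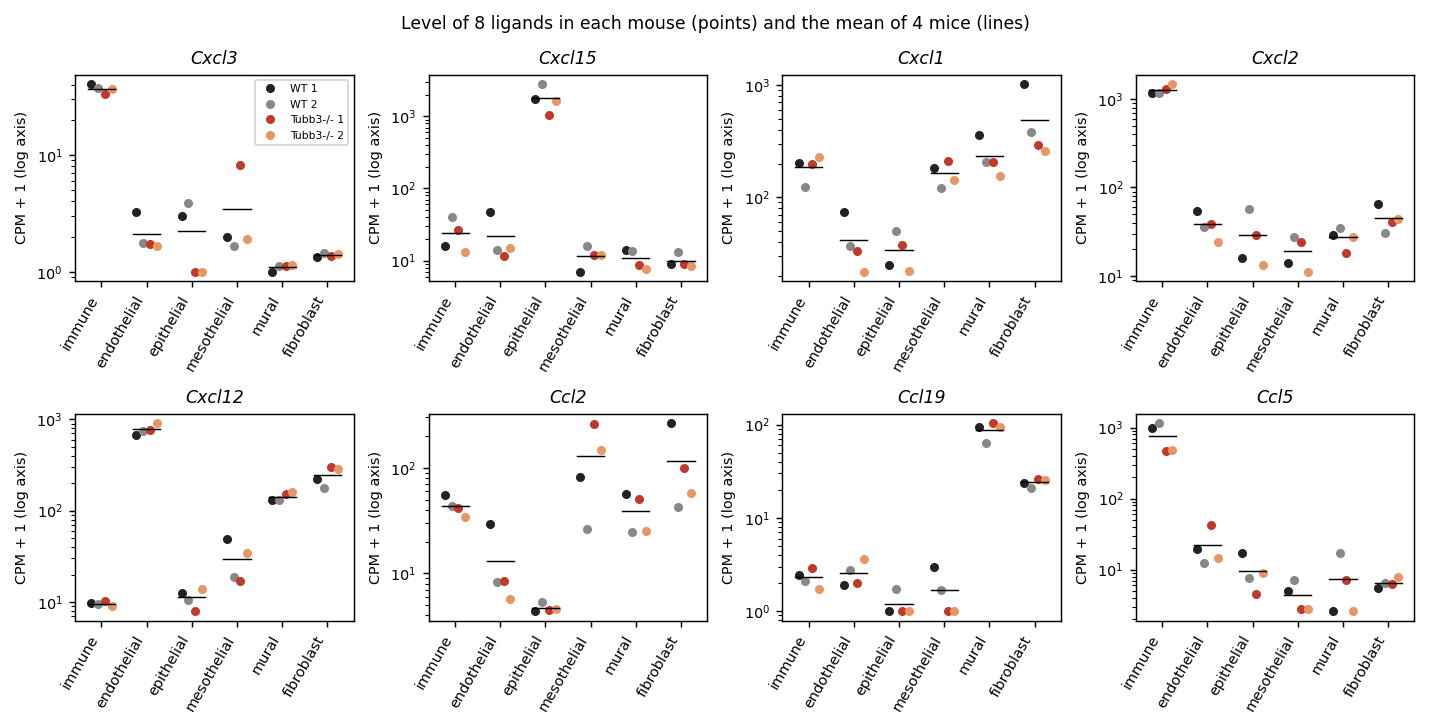
CPM + 1 on a log axis of Cxcl3, Cxcl15, Cxcl1, Cxcl2, Cxcl12, Ccl2, Ccl19 and Ccl5 in the 6 lineages, with 1 point for each mouse (dark for WT, red and orange for Tubb3-/-) and a line at the mean. Endothelial Cxcl12 and mural Ccl19 lie close together across mice, fibroblast Cxcl1 runs from 256 to 1023 CPM, and immune Ccl5 in each WT mouse lies above the Tubb3-/- points.

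Ccl19 (chr4:42754525-42756577), the other ligand of Ccr7, had its highest level in mural cells, at 93.3, 61.6, 102 and 92.7 CPM, with a log2 fold change of 5.95. Its mural mean of 87.5 CPM was below those of Cxcl1 (230) and Cxcl12 (141), which were higher in other lineages. Between 25.3% and 29.6% of mural cells held a UMI, and 9.54% to 12.5% after thinning, against 0.583% to 1.03% and 0.211% to 0.308% of immune cells. Fibroblasts held 26.5% of the mural level, within the range of mural markers there (median 3.44%, highest 34.6%). Ccl27a, a ligand of Ccr10, was at 20.1, 21.6, 17.7 and 21.4 CPM in mural cells. In mesothelial cells, Ccl2 was at 80.6, 25.0, 261 and 146 CPM (log2 fold change 2.30, and 1.99 with an adjusted p = 0.0616 by edgeR in the whole-cell libraries alone) and Cxcl13, the B cell attractant that binds Cxcr5, at 11.9, 31.8, 49.3 and 73.5 (2.78). For these mesothelial values the 72 to 102 cells of a mouse limit the precision. Ccl25, a thymus and gut chemokine, had no leading lineage in effect, with means of 13.5 CPM in both epithelial and endothelial cells. The members that stayed below 5 CPM everywhere were the receptors Cxcr1, Ccr3 and Ccr10 and the ligands Cxcl5, Ccl28 and Ccl20, the last with 4 UMIs over all lineages.

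Receptors lay in immune cells with 1 exception. Ccr7, the receptor of Ccl19 and Ccl21a on migrating dendritic cells and naive lymphocytes, was at 268, 158, 151 and 173 CPM. It was highest in the dendritic cell gate, at 763, 768, 425 and 737 CPM, and next in the B cell gate (Cd79a or Ms4a1, 305 cells), at 639, 655, 539 and 416, and these gates overlapped. Cxcr4, the signalling receptor of Cxcl12, was at 138, 130, 131 and 140 CPM and was the most even receptor over mice, with a UMI in 54.7% to 58.8% of immune cells and 25.3% to 26.3% after thinning, against 3.002% to 5.31% and 0.232% to 0.856% of fibroblasts. Ccr1 was at 129, 142, 114 and 116 CPM and Ccr2, the monocyte receptor of Ccl2 and Ccl7, at 124, 83.7, 118 and 106. Among receptors that mark 1 cell type, the neutrophil receptor Cxcr2 had 56.1% of its immune UMIs in the neutrophil gate, Cxcr6 had 56.8% and Ccr8 50.2% in the T cell gate, and Cxcr5 had 39.0% in the B cell gate. The T and B cell receptors were low over all immune cells, with Ccr8 at 14.8, 11.4, 24.05 and 18.9 CPM, Ccr6 at 13.1, 9.93, 19.5 and 12.8, and Ccr4 at 8.37, 10.9, 11.4 and 11.8. Ccr9, a gut-homing receptor whose span overlaps other annotated genes on its strand, was at 8.37, 5.47, 7.04 and 6.56 CPM. Cx3cr1, the receptor of Cx3cl1, was the exception. It was at 55.0, 64.3, 53.7 and 60.5 CPM in endothelial cells and at 81.3% of that mean in immune cells, and was called higher in both. Its annotated span overlaps Gorasp1, Csrnp1 and Xirp1 on the same strand, so reads of these genes cannot be told apart from it where they share exons, and its levels outside C1q macrophages (121, 256, 177 and 181 CPM) are uncertain.

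Pericytes, the mural cells in which the study looked for Tubb3, were set against smooth muscle cells within the mural lineage. The 42 cells with Higd1b and no Myh11 came from all 4 mice (11, 16, 10 and 5 cells) and were compared with 4008 cells with Myh11 and no Higd1b, with the mouse as a block. The pericyte marker Cox4i2 was at 1901 CPM in the first and 53.3 in the second, pooled. Of 25 members tested 6 differed at an adjusted p under 0.05 (edgeR), beside 14.5% of the 12078 genes, 3 higher (4.84% of all genes) and 3 lower (9.67%). Cxcr4 was at 135, 149, 78.4 and 238 CPM in the pericyte gate against 3.34, 3.36, 2.88 and 3.70 in smooth muscle cells (log2 fold change 4.95), from 36 UMIs in 17 of the 42 cells. The groups did not overlap. In the pericyte gate the immune markers Laptm5, Tyrobp and Coro1a were at 3.71, 14.85 and 7.42 CPM, pooled. In smooth muscle cells these markers were at 4.24, 8.51 and 2.08 CPM. The 455 cells with both Higd1b and Myh11 held Cxcr4 at 10.5, 90.6, 20.2 and 30.8 CPM, below the pericyte gate in every mouse. Cxcl14 was at 189, 224, 105 and 198 CPM against 24.1, 31.7, 30.9 and 34.0 (2.15), and Cxcl12 was lower, at 27.04, 64.1, 65.4 and 0 CPM against 134, 144, 159 and 167 (-2.06). Cells with both markers held Cxcl14 at 76.7, 208, 84.8 and 94.4 CPM and Cxcl12 at 66.2, 39.6, 60.0 and 82.7 CPM. Ccl2 was called higher (1.81) through 1 cell of WT 1 that held 125 of its 127 UMIs, and the log2 fold change was -2.10 without that mouse. Ccl19 was called lower (-2.70) from 4 UMIs in the pericyte gate, but the 455 cells with both markers held it at 301, 122, 231 and 185 CPM, and the direction turned (1.21) when all Higd1b cells were taken. Ccl27a had 0 UMIs in the 42 pericytes, where a floor of 3 counts over the gate is 11.1 CPM. It was at 20.8 CPM pooled in smooth muscle cells, 1.87-fold above that floor, which does not take in the spread between mice. The cells with both markers held Ccl27a at 12.5 CPM, pooled. Its call was lost without either WT mouse (adjusted p = 0.0754 and 0.129, edgeR).

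The question of the design was whether lungs without Tubb3 differ from WT lungs after injury. By Xist and Y-linked genes, WT 1 and Tubb3-/- 1 were male (Xist at 17.9 and 14.5 CPM). WT 2 and Tubb3-/- 2 were female (641 and 643 CPM), and the genotype test had no term for sex. No member was called in any lineage at an adjusted p under 0.05 (edgeR quasi-likelihood test, Benjamini-Hochberg over all genes), of 46 tested in immune cells, 26 in endothelial cells, 13 each in epithelial and mesothelial cells, 28 in mural cells and 31 in fibroblasts. Among all genes 0% were called in each lineage except mesothelial cells, with 0.231%. At an unadjusted p under 0.05 there were 7 members in immune cells (8.36% of all genes), 5 in endothelial cells (13.7%), 2 in epithelial cells (4.26%), 3 in mesothelial cells (8.37%), 5 in mural cells (11.1%) and 5 in fibroblasts (18.1%). DESeq2 called Ccl5 and Cxcl14 in immune cells (0.49% of all genes), Cx3cr1 in mural cells (1.14%) and Cxcl13 in fibroblasts (3.42%), and no member in the other 3 lineages. With the replicate number as a block, which also separates the sexes, edgeR called 5 members in fibroblasts (10.6% of all genes). It called 3 in mural cells (3.63%), 3 in mesothelial cells (2.89%), 2 in endothelial cells (1.39%) and 1 in immune cells (0.163%). The replicate numbers are not stated to pair mice. Without WT 1 the calls numbered 10 in immune cells (3.11% of all genes), 7 in mural cells (1.31%), 6 in fibroblasts (6.43%), 2 in mesothelial cells (2.92%) and 1 in endothelial cells (1.19%). Without WT 2 they numbered 5 in immune cells (1.18%), 5 in mural cells (3.78%), 5 in fibroblasts (3.41%), 4 in mesothelial cells (1.23%) and 3 in endothelial cells (0.359%). Without Tubb3-/- 2 there were 4 in mesothelial cells (3.33%) and 2 in endothelial cells (0.768%), and without Tubb3-/- 1 there was 1 in mesothelial cells (0.623%). In such fits the lone mouse of a group is assumed to vary like the other pair. The median log2 fold change of members and of all genes was 0.03 and 0.00 in immune cells, -0.34 and -0.01 in endothelial cells, -0.17 and 0.00 in mural cells and 0.10 and 0.00 in fibroblasts.

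**Figure D4:**
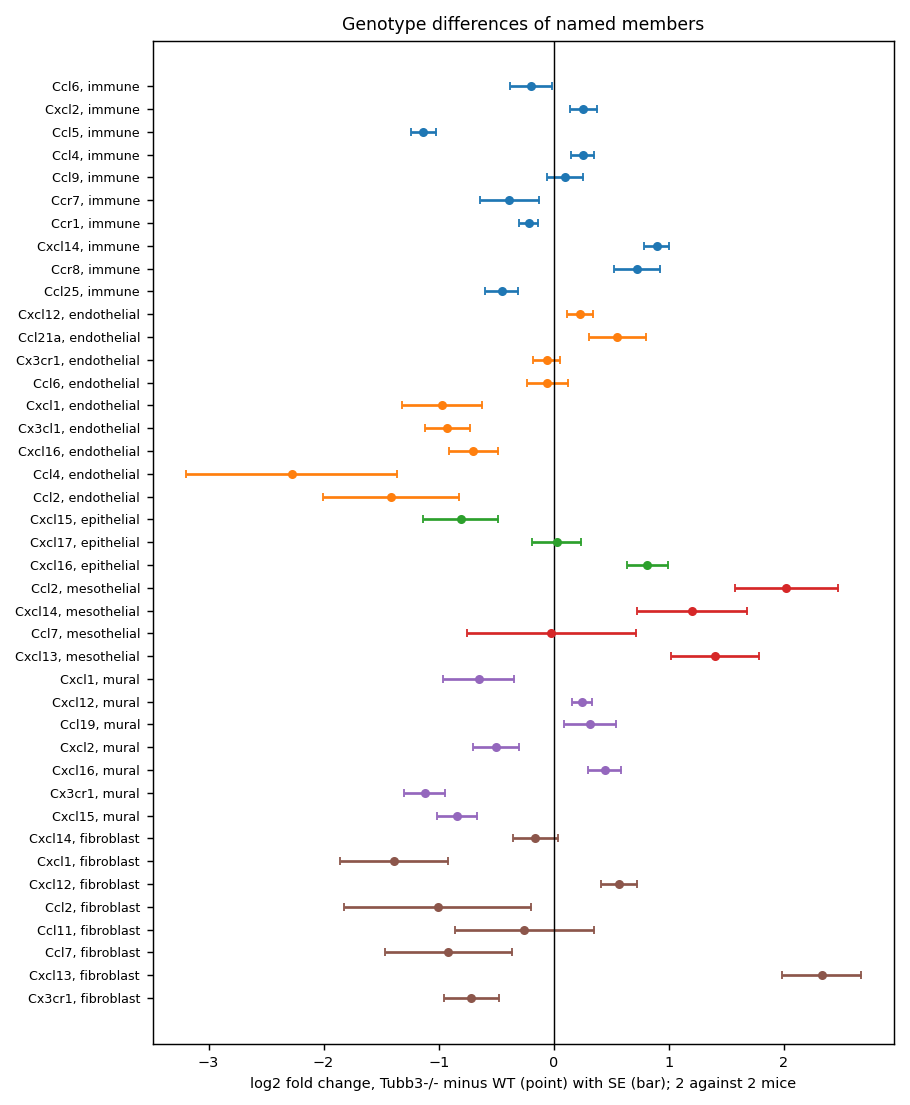
Log2 fold change of Tubb3-/- over WT (points) with its standard error (bars) for the leading members of each lineage and those at an unadjusted p under 0.05, coloured by lineage. Immune Ccl5 lies at -1.13, endothelial Cx3cl1 at -0.93, mesothelial Ccl2 at 2.02 and fibroblast Cxcl13 at 2.33, and none passed the adjusted threshold.

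The members below were chosen for description after their values had been seen, from those at an unadjusted p under 0.05. Immune Ccl5, at 971 and 1148 CPM in WT against 472 and 483 CPM, had a log2 fold change of -1.13 ± 0.11 (adjusted p = 0.150, edgeR), and the groups did not overlap. Its adjusted p was under 0.05 in 5 other fits, among them DESeq2 and the fits without WT 1 and without WT 2. The NK cell markers moved with it. The 5 markers summed to 669, 881, 353 and 334 CPM, all 5 lower in both Tubb3-/- mice, and the NK cell gate held 3.41%, 5.47%, 2.25% and 1.49% of the immune cells. Within the NK cell gate Ccl5 was also lower in both Tubb3-/- mice, as it was in the dendritic cell gate, at 846 and 1238 CPM in WT against 349 and 230, while in the T cell gate the groups overlapped. In summed cells, fewer cells of a type and less RNA in each cannot be told apart.

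Immune Cxcl14 was at 16.6, 16.5, 29.5 and 31.4 CPM (log2 fold change 0.89 ± 0.11, adjusted p = 0.204, edgeR). Its immune level was 3.85% of the fibroblast one, between the median (2.88%) and the highest (7.07%) fibroblast marker in immune cells, so it was read as background. The fibroblast level of Cxcl14, at 495, 797, 559 and 591 CPM, overlapped between genotypes. In Tubb3-/- 1, 1 immune cell held 67 of the 402 Cxcl14 UMIs of that mouse. Ccr8, a receptor of regulatory and type 2 T cells, was at 14.8, 11.4, 24.05 and 18.9 CPM (0.72 ± 0.20, adjusted p = 0.509, edgeR). In the T cell gate it was at 46.7, 53.3, 106 and 73.3 CPM, without overlap. In the same immune cells the ILC2 markers summed to 155, 109, 232 and 193 CPM and the regulatory T cell markers to 438, 197, 592 and 398, and their part in the Ccr8 values was not tested.

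In endothelial cells all 5 members at an unadjusted p under 0.05 were lower in Tubb3-/- mice, beside 6.65% of all genes lower. Cx3cl1 was at 32.2 and 47.0 CPM in WT and 20.0 and 22.1 in Tubb3-/- mice (-0.93 ± 0.20, adjusted p = 0.129, edgeR). In aerocytes it was at 115, 110, 69.6 and 65.3 CPM, and all 4 aerocyte markers were lower in both Tubb3-/- mice, summing to 587, 546, 460 and 466 CPM in endothelial cells. The activated capillary markers moved the other way, at 846, 459, 1295 and 1086 CPM, with all 3 higher in both Tubb3-/- mice, and the part of either list in the chemokine values was not tested. Cxcl16 was at 31.3, 35.7, 24.2 and 16.7 CPM and Cxcl1 at 72.5, 35.7, 31.9 and 20.7. Single cells of WT 1 weighed on Cxcl1, Ccl4 and Ccl2. For Cxcl1, 1 cell held 74 of the 162 UMIs of that mouse, and the log2 fold change was -0.97 and became -0.41 without WT 1 and -0.14 when each cell was given to its leading lineage. For Ccl4, at 55.0, 4.77, 6.47 and 4.59 CPM, 1 cell held 110 of the 123 UMIs of that mouse, and the log2 fold change was 0.24 without it. For Ccl2, at 28.6, 7.29, 7.48 and 4.75 CPM, 1 cell held 49 of 64 UMIs.

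In epithelial cells Cxcl16 was at 87.4, 100, 166 and 173 CPM (0.81 ± 0.18, adjusted p = 0.979, edgeR) and Cxcl15 at 1725, 2824, 1038 and 1634 (-0.81). Cxcl15 moved with the alveolar type 2 markers, which summed to 58286, 114750, 34706 and 50974 CPM, and the part of these cells in the difference was not tested. Mesothelial Ccl2 was higher in both Tubb3-/- mice (2.02 ± 0.45, adjusted p = 0.163, edgeR), but 0.86 when each cell was given to its leading lineage, with 24.7% to 44.7% of the UMIs of a mouse in its highest cell, and so was mesothelial Cxcl13 (1.40, adjusted p = 0.265).

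Fibroblast Cxcl13 was at 6.14 and 2.78 CPM in WT and 21.3 and 24.3 in Tubb3-/- mice (2.33 ± 0.34, adjusted p = 0.0881, edgeR). In Tubb3-/- 2, 1 cell held 267 of the 459 Cxcl13 UMIs of that mouse. When each cell was given to the lineage that leads in it, which keeps 25419 cells, the levels were 37.1, 2.88, 20.0 and 16.4 CPM and the log2 fold change was -0.19, since 1 cell of WT 1 then held 1027 of the 1255 UMIs of that mouse. Fibroblast Cxcl12 was at 219, 175, 303 and 284 CPM (0.57 ± 0.16, adjusted p = 0.177, edgeR) and mural Cxcl12 at 129, 130, 150 and 157 (0.24), and in both lineages each Tubb3-/- mouse was above each WT mouse. Fibroblast Cxcl1 was lower in both Tubb3-/- mice (-1.39 ± 0.47, adjusted p = 0.219, edgeR), mainly against WT 1. Fibroblast Ccl2 changed direction without WT 1 (0.97). Marker lists also moved in fibroblasts, the fibrotic list summing to 3610, 2278, 5371 and 4680 CPM and the inflammatory list to 540, 353, 1272 and 1095. The alveolar list moved the other way, summing to 3035, 5009, 1927 and 2152 CPM. The part of these lists in the chemokine values was not tested. In mural cells Cx3cr1 was at 19.5, 22.0, 10.8 and 8.06 CPM (-1.12 ± 0.18, adjusted p = 0.178, edgeR), with the limit on its overlapping genes given above.

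Genotype effects were not called different between lineages for any of 47 members (edgeR interaction test, 0.0344% of 17458 genes called). At an unadjusted p under 0.05 there were 8 members, beside 8.2% of all genes, led by Ccl2 and Cxcl13. Their adjusted p-values were 0.180 and 0.229 (edgeR). DESeq2 called Ccl2 (1.62% of all genes), and edgeR called 7 members without WT 1 (1.89%) and 4 without WT 2 (0.429%).

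Genes around the chemokine system were taken from lists. They held 11 chemokine-related genes, 20 genes of receptor signalling and 18 genes of the NF-kB pathway, and not all could be tested. In a lineage 2 (epithelial) to 9 (endothelial) of the first list passed the count filter. For the second it was 12 (mesothelial) to 20 (immune) and for the third 15 (mesothelial) to 18 (immune). Of those tested 0 were called between genotypes in any lineage (edgeR), beside 0% of all genes, or 0.231% in mesothelial cells. Ackr3, the scavenger of Cxcl12, was at 175, 157, 325 and 250 CPM in endothelial cells, where it was highest (log2 fold change 0.80 ± 0.16, adjusted p = 0.112, edgeR), and at 8.58, 8.83, 16.9 and 15.03 CPM in mural cells. In fibroblasts 12 of the 17 NF-kB genes tested were lower at an unadjusted p under 0.05 and none was higher, beside 11% of all genes lower, with a median log2 fold change of -0.72. Nfkbiz, a nuclear cofactor of NF-kB, was at 688, 656, 382 and 386 CPM (-0.81 ± 0.11, adjusted p = 0.0816, edgeR) and the adhesion molecule Icam1 at 272, 214, 118 and 119 (-1.05 ± 0.16, adjusted p = 0.0884, edgeR). Lower at an unadjusted p under 0.05 were also 5 of 16 in mural cells (5.58% of all genes), 7 of 16 in endothelial cells (6.65%) and 0 of 18 in immune cells (4.12%).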

How the data were processed

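Lung cells of 2 WT and 2 Tubb3-/- mice given bleomycin were profiled in 8 libraries (10x Genomics 3' chemistry with CellPlex tags, in 2 pools). The authors aligned the reads to mm10 with an added Cre gene with Cell Ranger 7.1.0, called cells, assigned them to mice by tag and deposited raw UMI counts per gene and cell. Mouse and genotype come from the tag given for each mouse in the sample labels, and 99.9% to 100% of the cells of a library were led by that tag.

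From these counts, cells with 200 to 7500 genes and at most 15% mitochondrial UMIs were kept (30860), and 777 (2.52%) marked as doublets by Scrublet (scanpy 1.11.5) were removed. Cell barcodes were shared 59 times between the pools and 0 times within them. No cell annotation was used. The lineage rule of 1 UMI drops every cell that holds a UMI of another lineage's marker, so an alternative gave each cell to its leading lineage, and it was chosen after seeing the data, as were the pericyte alternative with all Higd1b cells and the marker gates within lineages. Sums per mouse and lineage were tested with edgeR 4.0.16 (limma 3.58.1, R 4.3.3; filterByExpr, TMM, glmQLFit and glmQLFTest), and genes with an adjusted p under 0.05 over all genes tested were called. DESeq2 1.42.0 was an alternative, and others are given under the processing. The procedure was tested on simulated data with a fixed spread between mice. At a log2 fold change of 1 it recovered 31.9% (epithelial) to 52.4% (fibroblast) of changed genes between genotypes. In the interaction it recovered 26.1%. At a log2 fold change of 2 the genotype test recovered 84.1% (mesothelial) to 100% (immune and endothelial). Changes of the smaller size could thus be missed. With 2 mice a genotype, p-values measure the spread between those mice, and an exact permutation test of 2 against 2 cannot reach 0.05, so no single value was tested that way. Members called between genotypes or in the interaction were to be named, and there were none. Named members were drawn from those at an unadjusted p under 0.05 between genotypes and the 6 with the highest mean level in each lineage. Ccl2 and Cxcl12 and the members called in pericytes were added. Members and lists were chosen with earlier results of these data known. Cxcl9, Cxcl10, Cxcl11 and Cxcr3 were left out by the name rule. The values of 1 receptor are not reported here, and it stays in the counts.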

Additional observations from a re-analysis of the deposited data

Results flagged for a closer look

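The 3 results below moved in opposite directions in 2 lineages, in both Tubb3-/- mice against both WT mice. Such separation in 1 lineage was common among all genes tested. Higher in both Tubb3-/- mice were 19.2% in immune, 21.6% in epithelial and 18.9% in mesothelial cells. Lower in both were 21.5% in immune, 24% in endothelial and 18.8% in mural cells. The share of all genes with opposite directions in 2 lineages was not counted. Ccl2 was higher in mesothelial cells (log2 fold change 2.02) and lower in immune cells (-0.38), a difference of 2.41, with the mesothelial value at 0.86 when each cell was given to its leading lineage, and the interaction test over all lineages gave an adjusted p = 0.180 (edgeR). Cxcl16 was higher in epithelial cells (0.81) and lower in endothelial cells (-0.70), a difference of 1.51 (adjusted p = 0.514, edgeR). Cxcl2 was higher in immune cells (0.26) and lower in mural cells (-0.50), a difference of 0.76 (adjusted p = 0.937, edgeR). When each cell was given to its leading lineage, mural Cxcl2 was at 35.8, 18.9, 23.0 and 31.1 CPM, and the genotypes overlapped. In the main mural sums 16.4% to 37.5% of the Cxcl2 UMIs of a mouse lay in 1 cell. The mural direction turned in the whole-cell libraries alone (0.76). The immune direction turned in the mural cell-enriched libraries alone (-1.13). The difference between the 2 named lineages alone was not tested.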

How the results depend on the processing

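In the genotype comparison no member was called. Under another setting the called members were as follows, each with the share of all genes called there. Without the filter on low counts there were 11 in endothelial (4.28%), 1 in epithelial (0.812%), 2 in immune (0.75%), 3 in mesothelial (1.7%) and 11 in mural cells (3.51%) and 15 in the interaction (3.11%). DESeq2 called 2 in immune cells (0.49%), 1 in mural cells (1.14%), 1 in fibroblasts (3.42%) and 1 in the interaction (1.62%). A gate of 2 UMIs gave 1 in mesothelial cells (0.355%), and the mural cell-enriched libraries alone gave 1 in endothelial cells (0.259%). With the replicate block it was 2 in endothelial cells (1.39%), 5 in fibroblasts (10.6%), 1 in immune cells (0.163%), 3 in mesothelial cells (2.89%) and 3 in mural cells (3.63%). The replicate numbers are not stated to pair mice, and same-numbered deviations correlated at 0.0731 (epithelial) to 0.383 (fibroblast). Same-numbered mice share their sex, so the block also separates the sexes. Leaving out 1 mouse gave 0 to 3 calls in endothelial cells, 0 to 6 in fibroblasts, 0 to 10 in immune cells, 1 to 4 in mesothelial cells, 0 to 7 in mural cells, 0 in epithelial cells and 0 to 7 in the interaction. The cause was not tested.

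Against the other lineages, the dominant gate called 28 members in epithelial cells (18 as reported; 64.9% of all genes) and 24 in mesothelial cells (14; 54.6%), and the whole-cell libraries alone called 6 in mesothelial cells (27.6%) and 17 in mural cells (26; 40.8%). With all Higd1b cells 12 members were called in pericytes (6), beside 31.7% of all genes. Of the single values for lineages 513 of 514 kept their direction and call, and mesothelial Ccl2 lost its call in the whole-cell libraries alone (adjusted p = 0.0616, edgeR).

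Genotype directions that turned were, with the dominant gate, endothelial Cx3cr1 (0.010), endothelial Ccl6 (0.064) and fibroblast Cxcl13 (-0.19), with a gate of 2 UMIs mesothelial Ccl7 (0.92), in the whole-cell libraries alone endothelial Ccl21a (-0.050), mural Ccl19 (-0.39), mural Cxcl2 (0.76) and fibroblast Cxcl14 (0.018), and in the mural cell-enriched libraries alone immune Ccl6 (0.46), immune Cxcl2 (-1.13), immune Ccr1 (0.90), endothelial Cx3cr1 (0.84) and endothelial Cxcl1 (0.34). Leaving out 1 mouse moved immune Ccl6 between -0.42 and 0.056, immune Ccl9 between -0.13 and 0.30, immune Ccr7 between -0.74 and 0.071, endothelial Cx3cr1 between -0.15 and 0.061, endothelial Ccl6 between -0.28 and 0.15, endothelial Ccl4 between -3.29 and 0.24, epithelial Cxcl17 between -0.25 and 0.23, mesothelial Ccl7 between -1.52 and 1.54, fibroblast Cxcl14 between -0.42 and 0.18, fibroblast Ccl2 between -1.79 and 0.97, fibroblast Ccl11 between -0.90 and 1.03, and fibroblast Ccl7 between -1.50 and 0.10. In pericytes Ccl2 turned with DESeq2 (-0.21) and ran from -2.10 to 2.94 when 1 mouse was left out, and Ccl19 turned with all Higd1b cells (1.21). Depth limits the epithelial and mesothelial sums, which are the smallest, and the 42 pericytes.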

Other observations

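Fibroblast marker gates separated 2 ligands, although 2643 of the 3785 fibroblasts fell in several gates and entered none. Cxcl14 was at 583, 891, 746 and 696 CPM in the alveolar gate (Ces1d or Scube2 alone, 624 cells) and at 56.8, 101, 117 and 132 CPM in the adventitial gate (Pi16 alone, 144 cells). Cxcl12 was at 445, 484, 536 and 476 CPM in the adventitial gate, above its level over all fibroblasts in every mouse. Ccl11 was at 574, 96.0, 236 and 283 CPM in the adventitial gate, with WT 1 again the highest mouse. Ccl8, a monocyte attractant, was at 33.6, 5.17, 205 and 91.6 CPM in C1q macrophages, higher in both Tubb3-/- mice but from 328 UMIs. These gates were chosen after the data were seen and carry no test.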
